A study of Mus musculus with 12 samples.

Results

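The genes described here are 36 genes that make cholesterol and fatty acids or control their synthesis. They were chosen by name from the cholesterol programme of SREBP2 and the fatty acid programme of SREBP1, with earlier results of these data known. Of the 36 genes, 34 had a probe set naming no other gene in the probe table, out of 18194 such genes in all. Of these 34, 33 were tested among 12071 genes. Acat2 and Acsl1 are not named in the probe table used here. Scd1, a stearoyl-CoA desaturase, lay below a signal of 50 in all 12 arrays and was not tested. Fads2, a desaturase of polyunsaturated fatty acids, lay below 50 in 6 arrays.

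The genes were measured in BV-2 cells, an immortalized mouse microglial line, with Affymetrix whole-genome mouse arrays. Of the 4 groups, the first received 50 µM luteolin, a plant flavonoid, the second was non-stimulated, the third received 50 µM luteolin + 50 ng/ml LPS and the fourth 50 ng/ml LPS alone, each for 24 h and each on 3 arrays. LPS is the endotoxin of Gram-negative bacteria and activates microglia through a Toll-like receptor. Luteolin was dissolved in DMSO, and whether control cultures received that solvent is not given in the sources used here. All groups share 1 cell line, so its arrays hold no spread between animals. In the methods text the joint treatment reads LPS with LPS, and the groups follow the sample labels. The extraction label speaks of PUER cells, while the other labels and the methods speak of BV-2. Of 14 microglia and macrophage markers, 13 reached a group mean of 50, with C1qa below it in every group. The summed signal of these 14 markers lay between 69472 and 76815 with luteolin, 69356 and 72434 in control, 55322 and 73229 with luteolin + LPS and 61468 and 71242 with LPS. The sum of 6 fibroblast markers did not exceed 175.8, and that of 6 astrocyte markers did not exceed 302.9. The 6 neuron markers summed to at most 331.5. A group mean of 50 was reached by 1 of the fibroblast, 2 of the astrocyte and 2 of the neuron markers. Of 4 oligodendrocyte markers measured, 3 reached a group mean of 50, and the 4 summed to between 830.7 and 2384. Among them Cnp had a mean signal of 1478 with luteolin, 1761 in control, 927 with luteolin + LPS and 1348 with LPS. The part of such markers in the results was not tested.

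Cells make cholesterol from acetyl-CoA through mevalonate, farnesyl diphosphate, squalene and lanosterol. They make fatty acids from the same acetyl-CoA, which is carboxylated, joined into palmitate and then elongated or desaturated. Both routes are switched on by SREBP transcription factors, which SCAP carries out of the endoplasmic reticulum when sterols are low and INSIG proteins hold back when sterols are high. Macrophages and microglia are known to shift their lipid synthesis when they are activated.

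The promoters of 3 members are shown because these members passed the test in the 2 comparisons with a call, luteolin averaged over both states and LPS versus control. The sequences are the 250 bases before the RefSeq transcript start in build GRCm38.p6, read in the direction of transcription. Capitals mark the sterol regulatory element TCACNCCAC and the NF-Y box CCAAT on either strand. Hmgcs1 lies at chr13:119690101-119690350 on the plus strand, Ebp at chrX:8193513-8193762 on the minus strand and Fasn at chr11:120824548-120824797 on the minus strand.
Hmgcs1: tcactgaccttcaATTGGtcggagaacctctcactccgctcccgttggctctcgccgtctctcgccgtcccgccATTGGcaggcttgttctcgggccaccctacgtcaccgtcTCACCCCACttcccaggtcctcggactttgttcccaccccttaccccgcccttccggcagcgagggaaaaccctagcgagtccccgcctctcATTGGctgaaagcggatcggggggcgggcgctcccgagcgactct
Ebp: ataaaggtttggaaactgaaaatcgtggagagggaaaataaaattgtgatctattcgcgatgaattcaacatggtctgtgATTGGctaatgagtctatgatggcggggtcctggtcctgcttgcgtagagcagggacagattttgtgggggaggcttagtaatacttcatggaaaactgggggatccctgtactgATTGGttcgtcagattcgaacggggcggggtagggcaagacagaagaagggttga
Fasn: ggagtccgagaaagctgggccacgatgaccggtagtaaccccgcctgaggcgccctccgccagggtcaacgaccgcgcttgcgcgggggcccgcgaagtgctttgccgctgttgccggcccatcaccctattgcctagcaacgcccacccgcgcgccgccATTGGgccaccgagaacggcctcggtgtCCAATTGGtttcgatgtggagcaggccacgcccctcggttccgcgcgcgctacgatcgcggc

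In these stretches Hmgcs1 held 1 sterol regulatory element, at position -137 from the start, and Ebp and Fasn held none. In Fasn, 2 of the NF-Y boxes overlap in the same capitals. Windows of 300 bases, from 250 before to 50 after a start, were at hand for 29 of the 36 members, as 39 windows. The sterol regulatory element stood in 2 of the 39 member windows (5.13%), against 1.24% of all 32851 windows. The NF-Y box stood in 24 of them (61.5%), against 37.4%. By gene it stood in 23 of the 29 members (79.3%), against 41.1% of 27025 genes with a window, tested here or not. The 29 include Acat2 and Acsl1, which have no value here. An E-box of the letters CACGTG stood in 6 windows (15.4%), against 7.15%, and the GC box GGGCGG in 29 windows (74.4%), against 35.7%. Such matches describe letters and not bound sites.

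**Figure D1:**
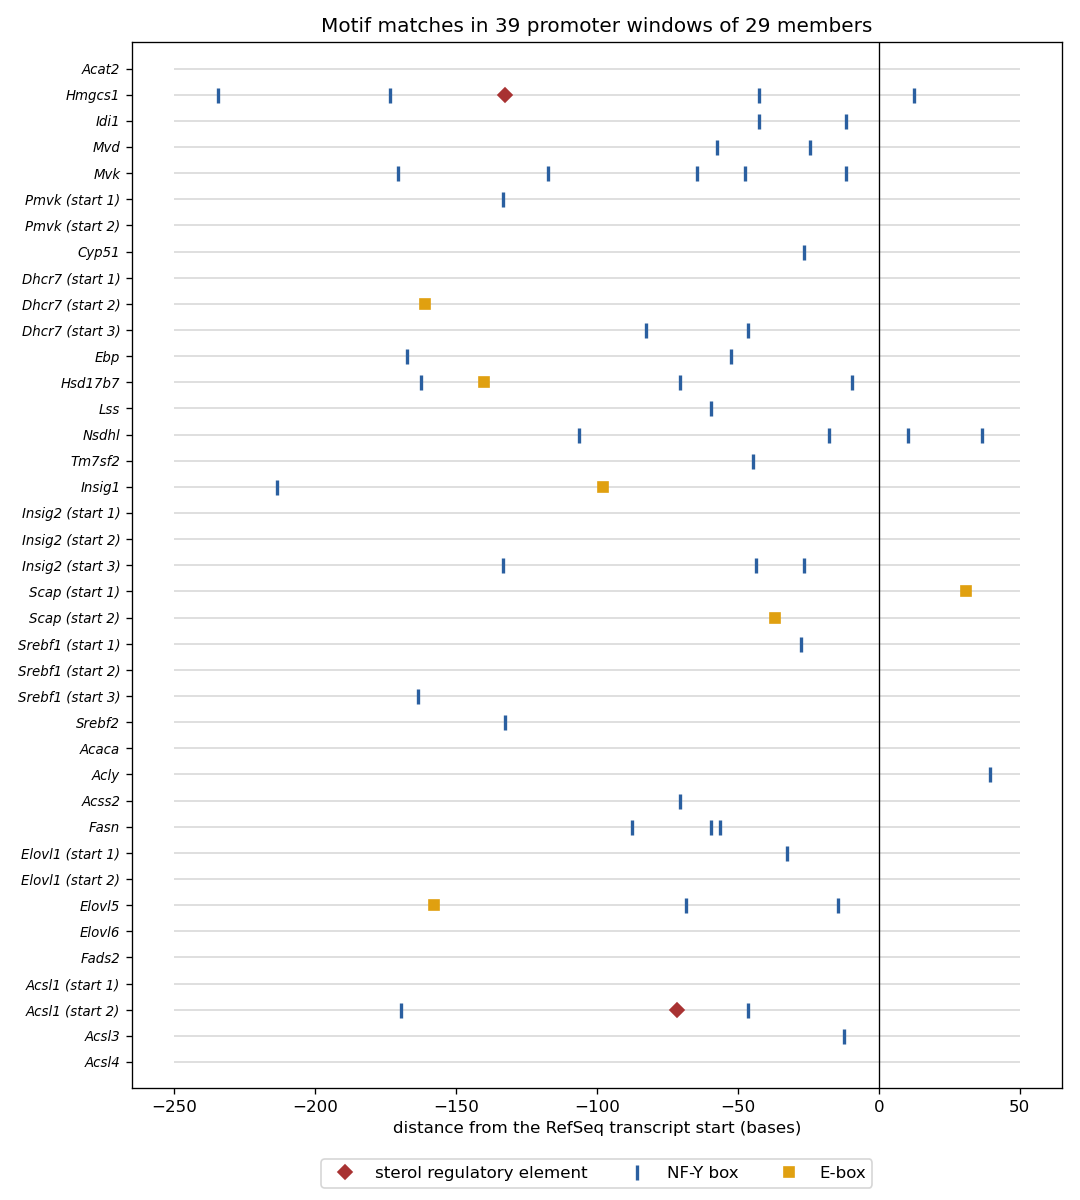
Positions of 3 motifs in 39 promoter windows of 29 members, by distance in bases from the RefSeq transcript start; each grey line is 1 window, diamonds are sterol regulatory elements, bars NF-Y boxes and squares E-boxes. Only Hmgcs1 and 1 start of Acsl1 carry a diamond, while 24 of the windows carry at least 1 bar.

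Differences were tested as log2 of the signal with limma in 1 model over all 12 arrays, and p-values were adjusted by Benjamini-Hochberg over the 12071 genes, with a threshold of 0.05. The 3 replicate numbers stand for independent stimulation experiments, and arrays of 1 number moved together, so the fit with the number as a block is given where it changes a call. Replicate 1 stood apart for several members before any group was compared. Acss2, which turns acetate into acetyl-CoA, had signals of 602, 241 and 207 with luteolin (replicates 1, 2 and 3), 676, 207 and 163 in control, 2021, 288 and 352 with luteolin + LPS and 1531, 248 and 194 with LPS. In every group its replicate 1 array was the highest by far, and the groups overlapped. Several results below are also given without the 4 arrays of replicate 1, an alternative added after the values were seen. As the RNA came from whole cultures, fewer cells expressing a gene and less of its RNA per cell cannot be told apart.

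Averaged over both states, that is with and without LPS, luteolin raised 2 members and lowered none. These were Fasn, the enzyme that joins malonyl-CoA into palmitate, and Ebp, the sterol isomerase late in cholesterol synthesis. Over all genes 1.16% passed as higher and 1.92% as lower, and at an unadjusted p under 0.05 there were 4 higher and 3 lower members, beside 7.99% and 11.4% of all genes. With the replicate block Elovl1, an elongase of very long chain fatty acids, passed as well (log2 difference 0.31, limma adjusted p = 0.0311), when 3.89% of all genes passed as higher and 6.22% as lower. The median of the 33 members was 0.04, beside 0.01 over all genes, and 19 of them lay above 0 (57.6%), against 51.0% of all genes.

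Fasn had signals of 1921, 2594 and 2706 with luteolin and 1340, 1662 and 1866 in control. In the activated state it had 1465, 2767 and 2165 with luteolin + LPS and 678, 1143 and 1134 with LPS. In both states every luteolin array lay above every array without it. The difference averaged over both states was 0.84 ± 0.19 (standard error), a 1.79-fold rise (limma adjusted p = 0.0425, and 0.00314 with the block). Within the same replicate number luteolin gave 0.52, 0.64 and 0.54 in resting cells, and 1.11, 1.28 and 0.93 in LPS-treated cells. In LPS-treated cells the difference was 1.11 ± 0.27 (adjusted p = 0.0891, and 0.00639 with the block). Without replicate 1 altogether the averaged difference passed (adjusted p = 0.00919), when 1082 of 12063 genes did. Without replicate 2 (0.409) or replicate 3 (0.396) it did not, when 0 of all genes did. It did not pass with arrays centred on their median (adjusted p = 0.0537), nor, without a block, when any 1 of 10 arrays was left out, all but LPS replicate 1 and luteolin + LPS replicate 1. Fasn is in the study's own gene list for luteolin + LPS versus LPS, chosen on these arrays, so its direction there is not independent evidence.

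Ebp had signals of 1141, 1201 and 1172 with luteolin and 770, 809 and 883 in control. It had 754, 1175 and 945 with luteolin + LPS and 724, 613 and 626 with LPS. The groups did not overlap in either state, and in the activated state replicate 1 showed the least difference, 0.06, beside 0.94 and 0.59 in the others. Averaged over both states the rise was 0.52 ± 0.11, or 1.44-fold (adjusted p = 0.0290, and 0.0180 with the block). The call was lost without any 1 of 8 arrays, namely each control or luteolin array and LPS replicates 2 and 3, with an adjusted p of at most 0.0838. It held without replicate 1 altogether (0.0144) and was lost without replicate 2 (0.409) or replicate 3 (0.406), when 0 of all genes passed. With the block it was lost without control replicate 2, luteolin replicate 3 or LPS replicates 2 or 3 (highest 0.0593). Ebp and Fasn each had 1 probe set.

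**Figure D2:**
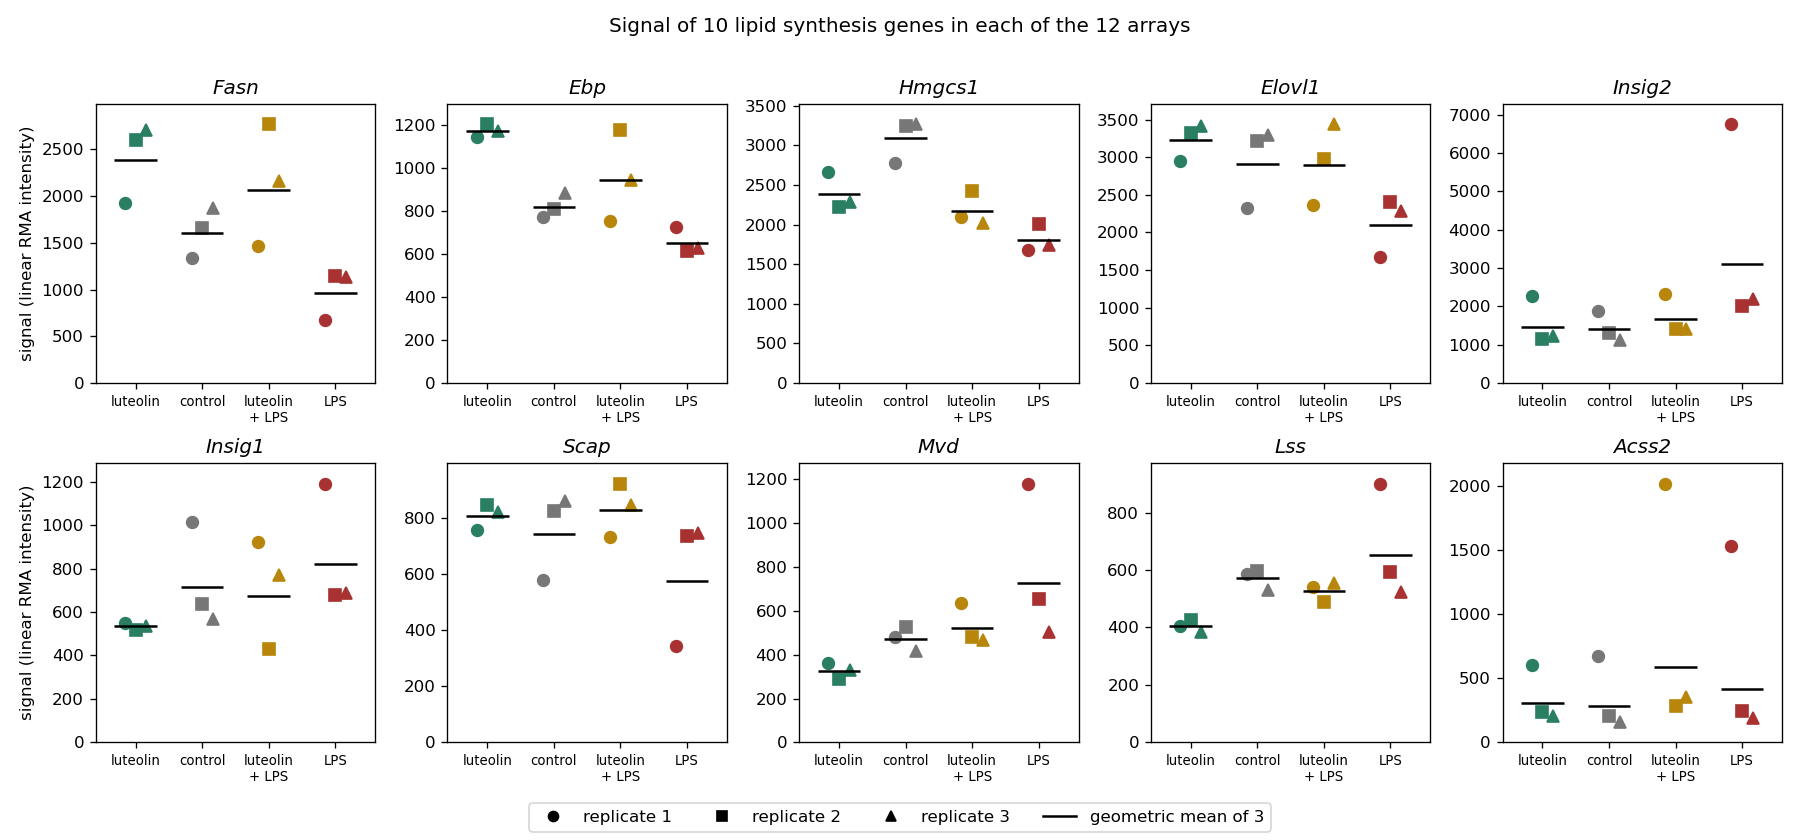
Signal (linear RMA intensity, from 0) of 10 members in each of the 12 arrays; symbols are replicate numbers and black lines geometric means of 3. Fasn and Ebp lie higher with luteolin in both states, Hmgcs1 is lowest with LPS, and replicate 1 stands apart in Acss2 and in Insig2 with LPS.

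In resting cells, no member passed the test for luteolin versus control, without or with the block, and 0 of all 12071 genes passed without it (0.0828% higher and 0.199% lower with the block). At an unadjusted p under 0.05 there were 1 higher and 5 lower members, beside 3.18% and 5.91% of all genes. Of 15 enzymes from Hmgcs1 to Dhcr7, 14 lay below 0, with a median of -0.17, against -0.01 over all genes, of which 47.1% lay above 0. The exception was Ebp. When single arrays were left out, between 1 and 3 of the 15 lay above 0. Their per-array median, taken against the control mean, was -0.21, -0.21 and -0.22 with luteolin, and 0.04, 0.01 and -0.07 in control.

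In 8 members all 3 luteolin arrays lay below all 3 control arrays, where 11.3% of all genes did so, and in Fasn and Ebp above, where 8.29% did. The 8 were Hmgcs1, Mvd, Fdps, Fdft1, Lss, Cyp51, Srebf2 and Insig1. Fdps, which builds farnesyl diphosphate, had 3280, 2896 and 3209 with luteolin and 5736, 3804 and 3880 in control. Its difference of -0.49 ± 0.16 did not pass (adjusted p = 0.394). Fdft1, the squalene synthase, differed by -0.49 ± 0.18 and Cyp51, the lanosterol demethylase, by -0.45 ± 0.22, with no call for either. Probe sets of Fdft1 disagreed in sign. Srebf2, the gene of SREBP2 itself, had 586, 514 and 533 with luteolin and 924, 736 and 671 in control, a difference of -0.50 ± 0.21 (adjusted p = 0.499). Srebf1, the gene of SREBP1, differed by 0.09 ± 0.11.

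Mvd, which decarboxylates mevalonate diphosphate, had 363, 290 and 330 with luteolin and 482, 526 and 416 in control, with no overlap. It had 636, 482 and 467 with luteolin + LPS and 1181, 652 and 502 with LPS, and these groups overlapped. Its averaged difference was -0.51 ± 0.19 (adjusted p = 0.168, and 0.0546 with the block), and -0.43 without replicate 1. Lss, the lanosterol synthase, had 406, 425 and 385 with luteolin and 587, 595 and 532 in control. It had 540, 489 and 554 with luteolin + LPS and 900, 592 and 522 with LPS, where replicate 1 of the LPS group was highest and the groups overlapped. Its averaged difference was -0.40 ± 0.12 (adjusted p = 0.106, and 0.0521 with the block), or -0.29 without replicate 1, and its probe sets disagreed in sign in LPS-treated cells.

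**Figure D3:**
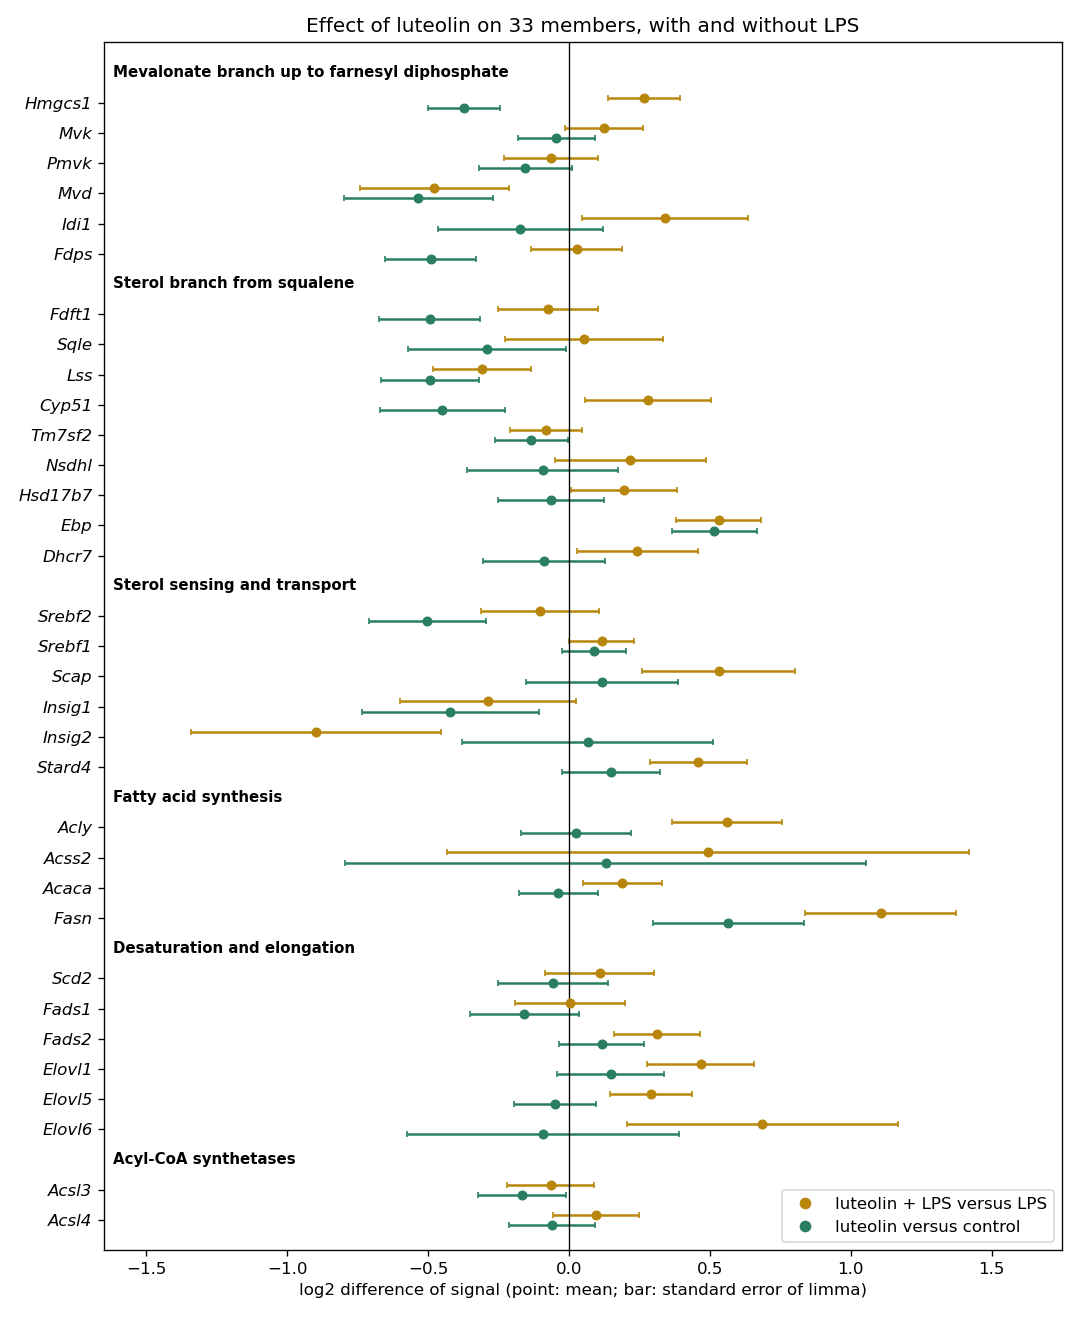
Log2 difference of 33 members by role for luteolin + LPS versus LPS (gold) and luteolin versus control (green); points are limma estimates and bars their standard errors. Of the 15 sterol enzymes, 14 green points lie below 0 and 10 gold points above 0.

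In LPS-treated cells, no member passed for luteolin + LPS versus LPS without the block, while 0.149% of all genes passed as higher and 0.356% as lower. At an unadjusted p under 0.05 there were 5 higher members and 0 lower ones, beside 6.89% and 7.98% of all genes. With the block 2 members rose, Fasn and Elovl1, and 1 fell, Insig2, when 1.95% and 2.84% of all genes passed. Of the 33 members 24 lay above 0, with a median of 0.19, where all genes had 52.9% above 0 and a median of 0.02. In 5 members, Fasn, Ebp, Hmgcs1, Stard4 and Elovl5, the luteolin + LPS arrays all lay above the LPS arrays, which 8.04% of all genes did, and in 0 members below.

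Of the 15 sterol enzymes 10 lay above 0. Of 12 fatty acid enzymes 11 lay above 0, with a median of 0.30, and none of the 12 arrays left out singly brought this below 9. Acly, which cleaves citrate into acetyl-CoA, had 2466, 3568 and 3780 with luteolin + LPS and 2714, 1850 and 2062 with LPS. Only replicate 1 ran the other way, and the difference of 0.56 ± 0.19 did not pass (adjusted p = 0.207). Without replicate 1 Acly, Cyp51, Ebp and Fasn passed as higher and Insig2 as lower. That comparison of 2 arrays with 2 was added after the values were seen. Of the 12063 genes tested in it, 164 passed as higher and 340 as lower. Acaca, the acetyl-CoA carboxylase, differed by 0.19 ± 0.14. Elovl6, which elongates palmitate, differed by 0.69 ± 0.48 and Elovl5, which acts on polyunsaturated chains, by 0.29 ± 0.15, and neither passed. Elovl6 had 93.9, 313 and 339 with LPS, lowest in replicate 1, and without that replicate its difference was 0.46. Scd2, a stearoyl-CoA desaturase with a mean signal of 10390 with luteolin + LPS and 9637 with LPS, differed by 0.11 ± 0.19, and by -0.14 without replicate 1. Acsl3 and Acsl4, which activate long chain fatty acids, differed by -0.06 ± 0.16 and 0.10 ± 0.15.

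Elovl1 had signals of 2955, 3322 and 3408 with luteolin and 2326, 3213 and 3290 in control. It had 2369, 2978 and 3436 with luteolin + LPS and 1677, 2398 and 2281 with LPS. Replicate 1 was lowest in every group, and the groups overlapped in both states, while luteolin was higher within each replicate number in both. The difference in LPS-treated cells was 0.47 ± 0.19 (adjusted p = 0.284, and 0.0411 with the block). With the block it still passed without 2 of the 12 arrays, control replicate 1 or luteolin replicate 1, and was lost without each of the other 10 (highest adjusted p = 0.131). In its averaged difference, too, the block call survived leaving out 2 arrays only, LPS replicate 1 and luteolin + LPS replicate 2.

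Of the 6 sensors and carriers of sterols, 3 lay above 0 and 3 below in LPS-treated cells. Insig2, an anchor that keeps SCAP in the endoplasmic reticulum, had 2259, 1158 and 1216 with luteolin and 1889, 1301 and 1129 in control. It had 2314, 1400 and 1421 with luteolin + LPS and 6751, 2011 and 2193 with LPS. Replicate 1 was the highest array of each group, so that the groups overlapped in both states. The difference with luteolin + LPS was -0.90 ± 0.44 (adjusted p = 0.383, and 0.0425 with the block). Without LPS replicate 1 it was -0.34 (adjusted p = 0.687), or -0.59 with the block (adjusted p = 0.0345). Without replicate 1 altogether it was -0.57 (adjusted p = 0.0424). The block call held without LPS replicate 1 or control replicate 1 and was lost without each of the other 10 arrays (highest adjusted p = 0.111). Insig2, like Fasn, is in the study's own list for this comparison, so its direction is not independent evidence.

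Insig1, the paralogue that is itself an SREBP target, had 549, 517 and 537 with luteolin and 1013, 635 and 568 in control. It had 921, 429 and 770 with luteolin + LPS and 1190, 677 and 688 with LPS, and here the groups overlapped. Its averaged difference was -0.35 ± 0.22 (adjusted p = 0.428), and -0.22 without replicate 1. Scap had 756, 846 and 823 with luteolin and 581, 826 and 861 in control. It had 732, 923 and 847 with luteolin + LPS and 344, 736 and 749 with LPS, where the low replicate 1 made most of the difference. Its averaged difference was 0.32 ± 0.19 (adjusted p = 0.400), and 0.12 without replicate 1. For Acss2 the averaged difference was 0.31 ± 0.65 (adjusted p = 0.848) and turned to -0.13 without luteolin + LPS replicate 1. Stard4, a sterol carrier, had 537, 881 and 631 with luteolin + LPS and 502, 481 and 477 with LPS, a difference of 0.46 ± 0.17 without a call (adjusted p = 0.248).

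The effect of luteolin in LPS-treated cells minus that in resting cells is the interaction. It lay above 0 in 32 of the 33 members, all but Insig2, against 56.0% of all genes. The median was 0.31, beside 0.03 over all genes. Within replicates 1, 2 and 3 the member median was 0.21, 0.35 and 0.24, and when single arrays were left out 27 to 32 members stayed above 0. Without replicate 1 altogether 26 members lay above 0, without replicate 2 there were 29 and without replicate 3 there were 28. No member passed the test, nor did any of the 12071 genes, without or with the block. At an unadjusted p under 0.05 there were 3 members, Hmgcs1, Fdps and Cyp51, all higher, beside 1.56% of all genes as higher and 1.59% as lower. The members share arrays and co-vary, so the count is a description and not 33 separate observations.

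**Figure D4:**
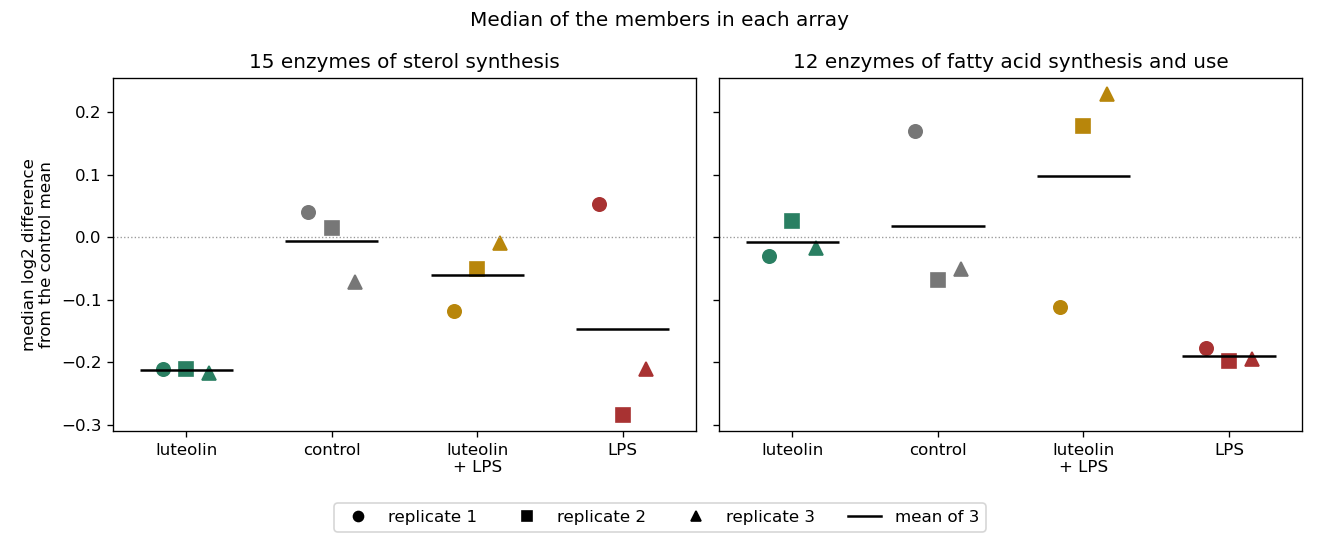
Median log2 difference from the control mean over 15 sterol enzymes (left) and 12 fatty acid enzymes (right) in each array; symbols are replicate numbers and black lines means of 3. The sterol medians with luteolin are -0.21, -0.21 and -0.22, below every control array, and the fatty acid medians with luteolin + LPS are -0.11, 0.18 and 0.23, all above the LPS arrays.

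LPS on its own lowered 1 member, Hmgcs1, and raised none, where 1.96% of all genes rose and 2.22% fell. Hmgcs1 makes HMG-CoA, the first dedicated intermediate of the mevalonate route. It had 1681, 2009 and 1746 with LPS and 2775, 3245 and 3265 in control, with no overlap. The difference was -0.77 ± 0.13, to 0.585 times the control level (adjusted p = 0.00773), and it passed without each of the 12 arrays in turn. It passed without replicate 1 altogether (adjusted p = 0.0198) but not without replicate 2 (0.0953) or replicate 3 (0.343), which leave 2 arrays a group. With luteolin Hmgcs1 had 2666, 2215 and 2290, and with luteolin + LPS 2095, 2420 and 2023. Luteolin was thus lower than control by 0.37 ± 0.13 on the log2 scale and, with LPS, higher than LPS alone by 0.27 ± 0.13, with no overlap in either state and no call in either.

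With the block 3 members fell with LPS, Hmgcs1, Fasn and Elovl1, and Insig2 rose, when 4.30% of all genes passed as higher and 6.78% as lower. For Fasn the difference was -0.75 ± 0.27 (adjusted p = 0.145, and 0.00845 with the block) and the 3 LPS arrays lay below all control arrays. For Elovl1 it was -0.47 ± 0.19 (adjusted p = 0.192, and 0.0217 with the block), with overlap. For Insig2 it was 1.14 ± 0.44, or 2.21-fold (adjusted p = 0.177, and 0.00953 with the block), with no overlap. Without LPS replicate 1 the Insig2 difference was 0.58 without a block (adjusted p = 0.410) and 0.83 with it (adjusted p = 0.00747). These block calls were lost without control replicate 3 for Fasn (0.0551) and Insig2 (0.0507), and without control replicates 2 and 3 and LPS replicates 1 and 3 for Elovl1 (highest 0.103).

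Over the 33 members 24 lay below 0 with LPS, with a median of -0.16, against -0.04 over all genes, of which 45.1% lay above 0. The LPS arrays lay below all control arrays in 8 members, Hmgcs1, Idi1, Ebp, Cyp51, Fasn, Fads1, Elovl5 and Acsl3, which 16.1% of all genes did. They lay above in 2, Insig2 and Hsd17b7, a reductase of sterol demethylation, beside 11.5% of all genes. Hsd17b7 had 443, 396 and 405 with LPS and 246, 332 and 256 in control, a difference of 0.59 ± 0.19 (adjusted p = 0.110). Mvd differed by 0.62 ± 0.26 (adjusted p = 0.213), with 1.29 in replicate 1 and 0.31 and 0.27 in the others. Ebp differed by -0.33 ± 0.15 and Pmvk, the phosphomevalonate kinase, by -0.48 ± 0.17, with no call for either. The values with LPS and those with luteolin are each taken against shared arrays, so they are set side by side only.

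**Figure D5:**
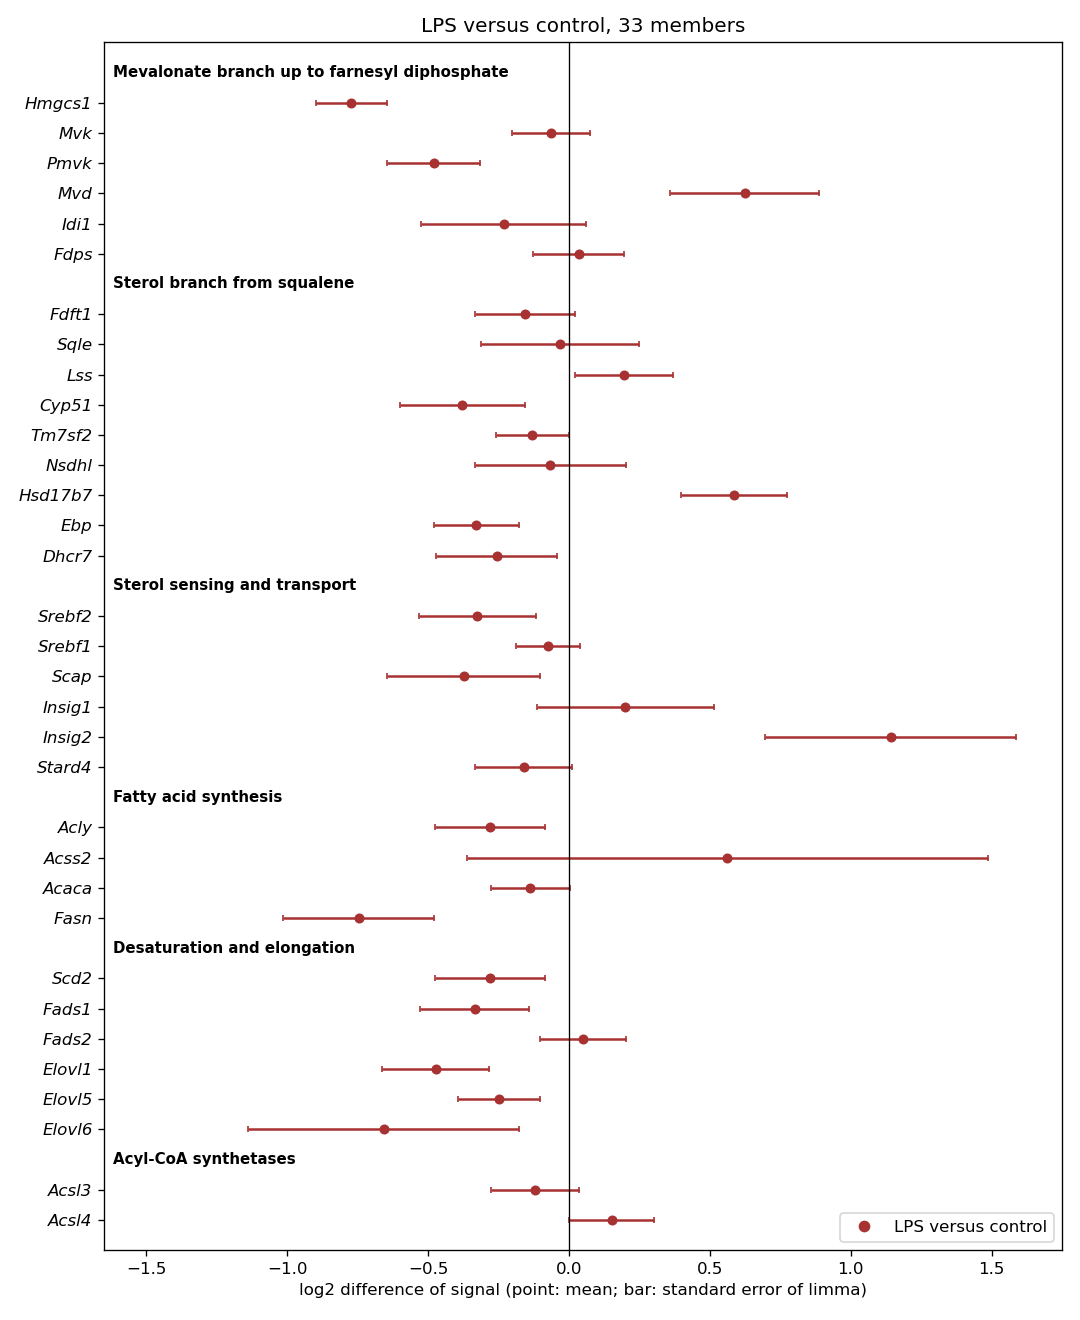
Log2 difference of 33 members by role for LPS versus control; points are limma estimates and bars their standard errors. Hmgcs1, at -0.77, is the member that passed the test without a block, and Insig2, at 1.14, has a bar of 0.44.

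The other genes of these routes gave the surroundings. Of 15 further sterol genes tested, 0 passed for luteolin averaged over both states without a block, and with it 1 rose and 1 fell. Over all genes 1.16% passed as higher and 1.92% as lower without the block, and 3.89% and 6.22% with it. Aacs, which makes acetoacetyl-CoA for lipid synthesis, differed by 0.52 ± 0.19 (adjusted p = 0.168, and 0.0136 with the block). Erlin1, a protein of endoplasmic reticulum rafts that binds the SREBP complex, differed by -0.50 ± 0.17 (adjusted p = 0.143, and 0.0302 with the block), and its block call held only without LPS replicate 1 or luteolin + LPS replicate 1 (highest adjusted p = 0.0870). Lbr, a sterol reductase of the nuclear envelope, differed by 0.39 ± 0.31, with no call without or with the block. Without replicate 1 it differed by 0.44 (adjusted p = 0.0337), when 1082 of 12063 genes passed, Erlin1 among them (0.0108). For Lbr luteolin gave -0.71, 0.56 and 0.17 in replicates 1, 2 and 3 of resting cells, and 1.27, 0.69 and 0.36 with LPS.

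Of 22 further fatty acid and glycerolipid genes, 1 rose with luteolin averaged over both states, where 1.16% of all genes did. This was Tecr, the last reductase of the elongation cycle, with 4333, 4386 and 4489 with luteolin and 4149, 3009 and 3347 in control. It had 4917, 4820 and 4331 with luteolin + LPS and 3284, 2845 and 3241 with LPS. Its difference was 0.47 ± 0.09 (adjusted p = 0.0256, and 0.0118 with the block), and without the block the call was lost when any 1 of 8 arrays was left out. With the block Me1, the malic enzyme that supplies NADPH (0.36, adjusted p = 0.0395), and Hacd3, a dehydratase of elongation (0.32, adjusted p = 0.0394), rose too. Dgat2, which completes triglycerides, fell by 0.97 with the block (adjusted p = 0.0424, and 0.257 without). With the block 3.89% of all genes passed as higher and 6.22% as lower. With 1 array left out, the block calls held for Me1 only without LPS replicate 1 or luteolin + LPS replicate 1, for Hacd3 only without LPS replicate 3 and for Dgat2 only without LPS replicate 1 or luteolin + LPS replicate 3 (highest adjusted p = 0.107, 0.110 and 0.111). Elovl3, another elongase, differed by 0.61 ± 0.25 with no call.

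With LPS, Lpin1, a phosphatidate phosphatase, fell by 1.47 on the log2 scale (adjusted p = 0.00177), a call lost without replicate 2 (0.0618) or replicate 3 (0.0765). It had 291, 302 and 253 with LPS and 996, 742 and 641 in control. Without the block 1.96% of all genes rose with LPS and 2.22% fell. With the block Agpat2, an acyltransferase of phosphatidate synthesis, also fell (-0.52, adjusted p = 0.0194). Dgat2 (1.71, adjusted p = 0.0182), Me1 (0.69, adjusted p = 0.0128) and Hsd17b12, a ketoreductase of elongation (0.38, adjusted p = 0.0419), rose with the block. In that fit 4.30% of all genes passed as higher and 6.78% as lower. The Hsd17b12 call held only without luteolin + LPS replicate 2 (highest adjusted p = 0.155), and the Me1 call was lost without control replicate 3 (0.0624). The Dgat2 call was lost without control replicates 1 or 3 or LPS replicates 2 or 3 (highest 0.0944), and the Agpat2 call without control replicates 2 or 3 or LPS replicates 1 or 3 (highest 0.109). Dgat2 had 721, 2626 and 3457 with LPS and 334, 821 and 687 in control, and replicate 1 was the lowest array of both groups. For luteolin + LPS versus LPS none of these other genes passed without the block, and with it Aacs (0.81) and Tecr (0.59) rose and Dgat2 fell by 1.57. Of all genes 0.149% passed as higher and 0.356% as lower without the block, and 1.95% and 2.84% with it. With 1 array left out, the Aacs call held in 8 of 12 fits and was lost without LPS replicates 2 or 3 or luteolin + LPS replicates 1 or 2. The Tecr call held in 5 of 12, without control replicates 1 or 2, luteolin replicate 1, LPS replicate 1 or luteolin + LPS replicate 3. The Dgat2 call held in 3, without luteolin replicate 3, LPS replicate 1 or luteolin + LPS replicate 3.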

How the data were processed

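The authors summarized the probe intensities with RMA (background correction, quantile normalization, median polish), per the labels and the study's methods, and deposited linear intensity values for each probe set on each array. Array medians lay between 52.2 and 56.4, and within a group the lowest correlation between arrays was 0.978. The number of arrays limits the precision.

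The log2 was taken. Of 45101 probe sets, 34958 named 1 gene, 932 several and 9211 none, and those with several were not used. Each gene was represented by its probe set of highest mean log2 signal. Members had 82 probe sets. Of 21 members with several probe sets at a mean signal of 50 or more, all agreed in sign in 12 for luteolin versus control, in 17 for luteolin + LPS versus LPS and for the averaged contrast, and in 16 for LPS versus control. Genes with a geometric mean of 50 in at least 1 group were tested with limma 3.58.1 in R 4.3.3, as 4 group means over 12 arrays without a block. The labels number replicates 1 to 3 in each group. The paper's methods speak of 3 independent RNAs and its results of 3 stimulation experiments, and neither ties them to the numbers. Deviations from the group means correlated in all 18 pairs of the same number (r of 0.101 to 0.591, median 0.42). Pairs of different numbers had a median of -0.30 and ranged from -0.56 to 0.48. Once same numbers correlate, taking off group means pushes these other pairs below 0, so they are no separate support. The numbers were taken to pair the arrays. The scripts were tested on simulated data. Alternatives were the block, the mean of probe sets, no filter, median centring, array weights, only the groups compared and leaving out arrays.

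Members, role groups and gene lists were chosen with earlier results of these data known. Members past the threshold in any contrast, without or with the block, and the 8 with the greatest averaged luteolin difference are given array by array. Of the other pathway genes, those past it and the 3 of greatest averaged difference per list are named. Other members were named to fill their role. Promoters came from RefSeq and were read with Python 3.11.15, and figures were drawn with matplotlib 3.10.9. Some genes of these routes are not reported here.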

Additional observations from a re-analysis of the deposited data

Results flagged for a closer look

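For Hmgcs1, luteolin was lower than control within all 3 replicate numbers of resting cells and higher than LPS alone within all 3 of LPS-treated cells. The differences were -0.06, -0.55 and -0.51 in resting cells and 0.32, 0.27 and 0.21 with LPS. The test of the difference itself, limma's interaction, gave 0.64 with an unadjusted p of 0.00444 and an adjusted p of 0.999, so it did not pass. Opposite directions in every replicate were seen in 1 of 33 members (3.03%) and in 414 of 12071 genes (3.43%).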

How the results depend on the processing

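The replicate block moved the count of members called to 3 for luteolin + LPS versus LPS and 4 for LPS versus control, and the count of all genes called to 34 for luteolin versus control, 578 for luteolin + LPS versus LPS, 1220 for luteolin averaged over both states and 1338 for LPS versus control. It changed no other member count by more than 1.5 times. Array weights gave 5 members for luteolin versus control and 3 for luteolin + LPS versus LPS. They gave 5 for the averaged contrast and 8 for LPS versus control. In this order 962, 292, 1767 and 1950 genes passed in all, and 5 for the interaction. The 5 members for luteolin versus control were Ebp and Fasn, higher, and Fdft1, Hmgcs1 and Lss, lower. There 335 of all genes passed as higher and 627 as lower. With only the groups compared, 0 genes passed for luteolin + LPS versus LPS and 306 for LPS versus control. Median centring left 1 member, Ebp, in the averaged contrast. The mean of the probe sets and no filter on low signal kept these counts within 1.5 times.

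Leaving out 1 array gave 0 to 2 members for luteolin + LPS versus LPS and for the averaged contrast and 1 to 2 for LPS versus control. With the block these were 1 to 4, 1 to 5 and 1 to 5. How many of all genes passed in these block fits was not counted, so these member ranges have no background. With all arrays the block called 578, 1220 and 1338 of all genes in the same order. Leaving out a whole replicate number, added after the values were seen, gave 0 to 5, 0 to 4 and 0 to 2 members. The highest member counts came without replicate 1 or without an array of replicate 1, except for LPS versus control with the block. Over all genes the fits without the block called 0 to 2 for luteolin versus control and the interaction, 0 to 504 for luteolin + LPS versus LPS, 0 to 1082 for the averaged contrast and 25 to 661 for LPS versus control. The cause was not tested. The median of the members then lay between 0.083 and 0.24 for luteolin + LPS versus LPS, -0.24 and -0.092 for LPS versus control and 0.18 and 0.32 for the interaction, and in the other contrasts it moved by less than the spread between replicates. Acss2 ranged from -0.13, without luteolin + LPS replicate 1, to 0.78 in the averaged contrast. Members near a signal of 50, such as Fads2, are limited by signal over background.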
